A study of Homo sapiens with 24 samples.

Results

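TAZ-CAMTA1 and YAP-TFE3 were compared directly in SW872 cells, an established human liposarcoma line, to describe what tells these 2 fusion proteins apart at the level of mRNA. The comparison uses 6 of the series' 24 RNA-seq libraries, 3 of cells expressing TAZ-CAMTA1 and 3 of cells expressing YAP-TFE3, and a gene was tested where its mean over the 6 libraries was at least 5 counts, which held for 20501 of the 60279 genes listed. Both constructs carried a double Flag tag and were introduced with a retroviral vector into pools of cells selected with G418. Cells carrying the empty vector, called EV here, were treated in the same way and were used for 3 further libraries, and all 9 cultures were collected 48 h after reaching confluence. SW872 cells have their own WWTR1, YAP1, CAMTA1 and TFE3 genes, and the line does not come from the vascular tumor that carries these fusions. Per the study's methods, the 3 libraries of a group are biological triplicates from cells transduced and selected separately.

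TAZ and YAP are paralogous coactivators at the end of the Hippo pathway. They do not bind DNA themselves and reach their target genes through the TEAD transcription factors, and in dense cultures Hippo kinases normally keep them out of the nucleus. Both fusions keep an N-terminal part that binds TEAD. TAZ-CAMTA1 joins it to the C terminus of CAMTA1, a calmodulin-binding transcription factor, whereas YAP-TFE3 joins it to the C terminus of TFE3, a basic helix-loop-helix leucine zipper factor of the MiT/TFE family that binds E-box sequences and is known as a regulator of lysosome and autophagy genes. Each fusion defines its own subset of epithelioid hemangioendothelioma, and a tumor carries one or the other.

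A few short upstream sequences are shown first, because they carry the binding sequence known for MiT/TFE factors in lysosomal genes and the composite element known for ATF4, and both gene groups differed between the fusions. The MiT/TFE sequence is the palindrome TCACGTGA, which contains the E-box CACGTG. Each line gives 30 bases before the start of a gene called higher in YAP-TFE3 (RefSeq promoters, GRCh38.p14, all on the plus strand), with the motif in capitals. These genes were chosen for holding the motif, not for the size of their difference.
CTSA, chr20:45891298-45891327: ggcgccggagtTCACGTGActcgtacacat
GAA, chr17:80101493-80101522: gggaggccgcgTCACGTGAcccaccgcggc
LAMP1, chr13:113297199-113297228: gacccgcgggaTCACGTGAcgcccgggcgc
MCOLN1, chr19:7522571-7522600: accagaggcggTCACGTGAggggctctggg
ATP6V1G1, chr9:114587699-114587728: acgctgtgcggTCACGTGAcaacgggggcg
RRAGB, chrX:55717712-55717741: ggtagcggcagTCACGTGAcagactccggg

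CTSA encodes a lysosomal carboxypeptidase, GAA the lysosomal acid glucosidase, LAMP1 an abundant lysosomal membrane glycoprotein, MCOLN1 a lysosomal calcium channel, ATP6V1G1 a subunit of the proton pump and RRAGB a small GTPase that recruits mTORC1 to lysosomes. In these windows the motif began between 26 and 77 bases before the RefSeq start, and GAA and MCOLN1 each held a second match. The log2 fold change of TAZ-CAMTA1 over YAP-TFE3 was -0.85 for CTSA, -0.57 for GAA, -0.82 for LAMP1, -0.69 for MCOLN1, -0.56 for ATP6V1G1 and -0.52 for RRAGB, each with an adjusted p of at most 0.00622 by edgeR's quasi-likelihood test, and without YAP-TFE3 replicate 3 that of GAA was -0.39 with an adjusted p of 0.0553. The composite element known for ATF4 is TGATGCAA, and its reverse complement is in capitals in the following windows of CHAC1, a glutathione-degrading enzyme, and FGF21, a stress-induced hormone.
CHAC1, chr15:40953251-40953280: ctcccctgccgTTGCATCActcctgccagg
FGF21, chr19:48755459-48755488: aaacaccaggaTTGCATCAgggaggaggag

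The libraries held 25661463 to 29919655 counts for TAZ-CAMTA1, 30331854 to 35287476 for YAP-TFE3 and 19700277 to 26984451 for EV, and levels are given in CPM, counts per 1000000 counts of the library after scaling by TMM factors. Where 3 values stand against 3, those of TAZ-CAMTA1 come first, and a signed value is a log2 fold change of TAZ-CAMTA1 over YAP-TFE3 with its standard error (SE, n = 3 in each group) unless it is said to be against EV. This SE was derived from the test, as the absolute log2 fold change divided by the square root of the F statistic. It thus draws on the spread within groups over all 24 libraries in the fit. YAP-TFE3 replicate 3 stood apart from YAP-TFE3 replicates 1 and 2. The chi-square of its counts per degree of freedom was 65.7 and 51.9 against them, compared with 10.3 between replicates 1 and 2 and 6.67 to 19.3 among the TAZ-CAMTA1 libraries. It had lower levels of ATF4 stress genes and higher levels of some DNA replication, sterol synthesis, interferon and mitochondrial genes, and where it changed a call, or moved a named gene's fold change or a list's number of calls by over 1.5 times, the value without it is given as well. The share of counts from the mitochondrial genome was 4.3 to 5.65% in TAZ-CAMTA1 and 3.63, 3.79 and 5.12% in YAP-TFE3 replicates 1, 2 and 3.

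The genes behind the fusions were examined first. CAMTA1 (ENSG00000171735, chr1:6785454-7769706, hg38) was at 137, 139 and 150.0 CPM in the TAZ-CAMTA1 libraries, 24.7, 24.8 and 27.6 CPM in the YAP-TFE3 libraries and 21.1, 23.2 and 19.1 CPM in EV. The TAZ-CAMTA1 libraries were thus well above all others, with a log2 fold change over YAP-TFE3 of 2.47 ± 0.09 (SE; adjusted p = 2.87e-16). TFE3 (ENSG00000068323, chrX:49028726-49043410) was at 298, 318 and 223 CPM in YAP-TFE3, 157, 141 and 137 CPM in TAZ-CAMTA1 and 108, 119 and 127 CPM in EV, a log2 fold change of -0.95 ± 0.11 (adjusted p = 1.27e-07). Both C-terminal partners therefore rose in the libraries labelled with them. WWTR1, which encodes TAZ (chr3:149517235-149736714), was at 178, 181 and 177 CPM in TAZ-CAMTA1, 130.0, 123 and 119.8 CPM in YAP-TFE3 and 222, 201 and 182 CPM in EV. It did not pass the test between TAZ-CAMTA1 and EV (log2 fold change -0.18, adjusted p = 0.224) and was lower in YAP-TFE3 than in EV (-0.70, adjusted p = 9.29e-08). YAP1 (chr11:102110447-102233424) was at 153, 169.7 and 174 CPM in TAZ-CAMTA1 and 166, 155 and 131 CPM in YAP-TFE3, which overlap, with a log2 fold change of 0.13 ± 0.10 (adjusted p = 0.293). The counts do not separate the constructs' reads from those of the cells' own genes.

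Of the 20501 tested genes, 8816 (43.0%) differed between the fusions at an adjusted p under 0.05, 3956 (19.3%) higher in TAZ-CAMTA1 and 4860 (23.7%) higher in YAP-TFE3. In such bulk RNA, a change in the number of cells of one kind and a change in RNA per cell cannot be told apart. The median absolute log2 fold change of these genes was 0.71, and 2875 of them (32.6%) differed at least 2-fold. Large differences lay mostly on one side. At least 2-fold, 919 genes were higher in TAZ-CAMTA1 and 1956 in YAP-TFE3; at least 4-fold the counts were 89 and 805, and at least 8-fold 18 and 401. The 805 genes that were at least 4-fold higher in YAP-TFE3 had a median level of 1.64 CPM there, whereas it was 0.155 in TAZ-CAMTA1 and 0.158 in EV, and 572 of them were protein-coding and 174 long non-coding. The 89 genes that were at least 4-fold higher in TAZ-CAMTA1 had a median level of 0.69 CPM in their own group, 0.0955 in the YAP-TFE3 libraries and 0.535 in EV. In 291 genes called higher in YAP-TFE3, no TAZ-CAMTA1 library had more than 3 counts, and the converse held for 27 genes. Such genes could reach the minimum mean count only through the group where they were higher, and the YAP-TFE3 libraries held more counts.

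**Figure D1:**
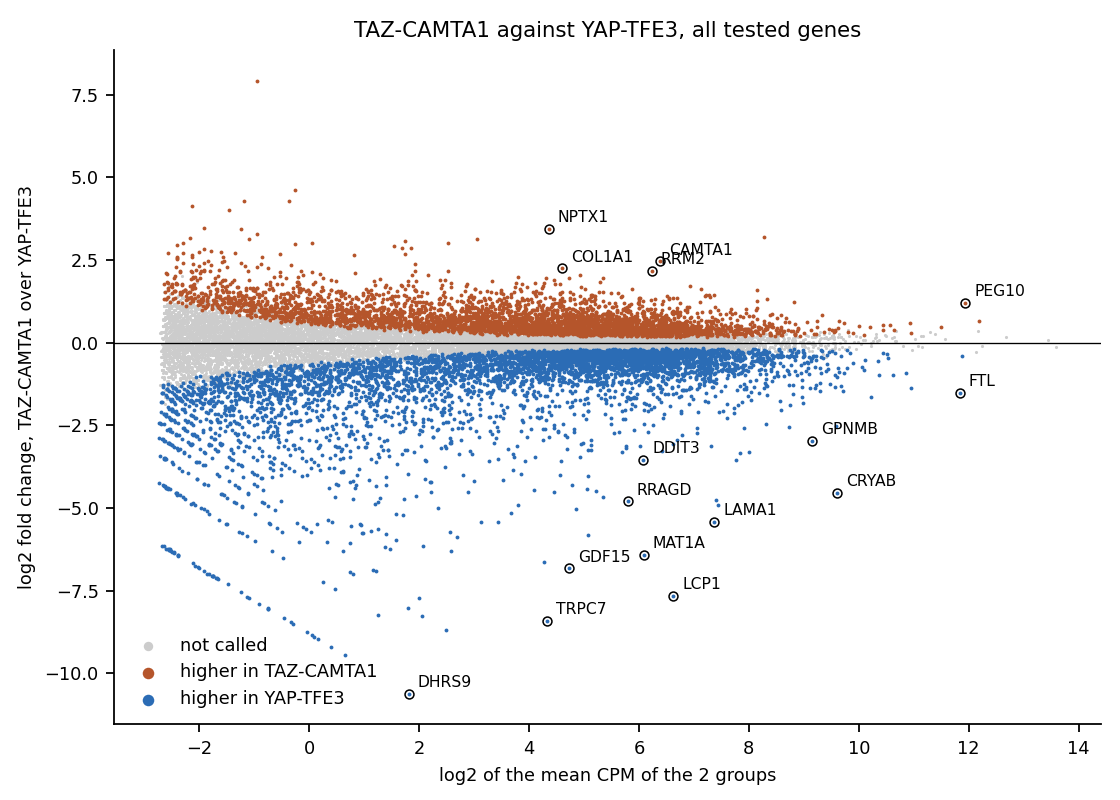
Each point is 1 of the 20501 tested genes, with the log2 of its mean CPM on the x axis and the log2 fold change of TAZ-CAMTA1 over YAP-TFE3 on the y axis, colored by the edgeR call, with some of the named genes circled. Points called higher in YAP-TFE3 reach further from 0 than those called higher in TAZ-CAMTA1, and the slanted rows at the lower left are genes without counts in TAZ-CAMTA1, whose fold change is set by the prior count.

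The 2 groups stood at different distances from confluent EV. In the same fit, 960 genes (4.68%) differed between TAZ-CAMTA1 and EV, 694 (3.39%) higher and 266 (1.3%) lower in TAZ-CAMTA1. That count fell to 519 without EV replicate 2, 540 without TAZ-CAMTA1 replicate 3 and 633 without EV replicate 1. Between YAP-TFE3 and EV, 9896 genes (48.3%) differed, 5411 (26.4%) higher and 4485 (21.9%) lower in YAP-TFE3. These contrasts share the EV libraries and are given side by side only. With library totals in place of TMM factors, the median log2 fold change of all genes between the fusions moved from -0.006 to 0.083, and the calls split into 5113 higher in TAZ-CAMTA1 and 4016 higher in YAP-TFE3. The direction of a small difference therefore depends on the scaling.

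**Figure D2:**
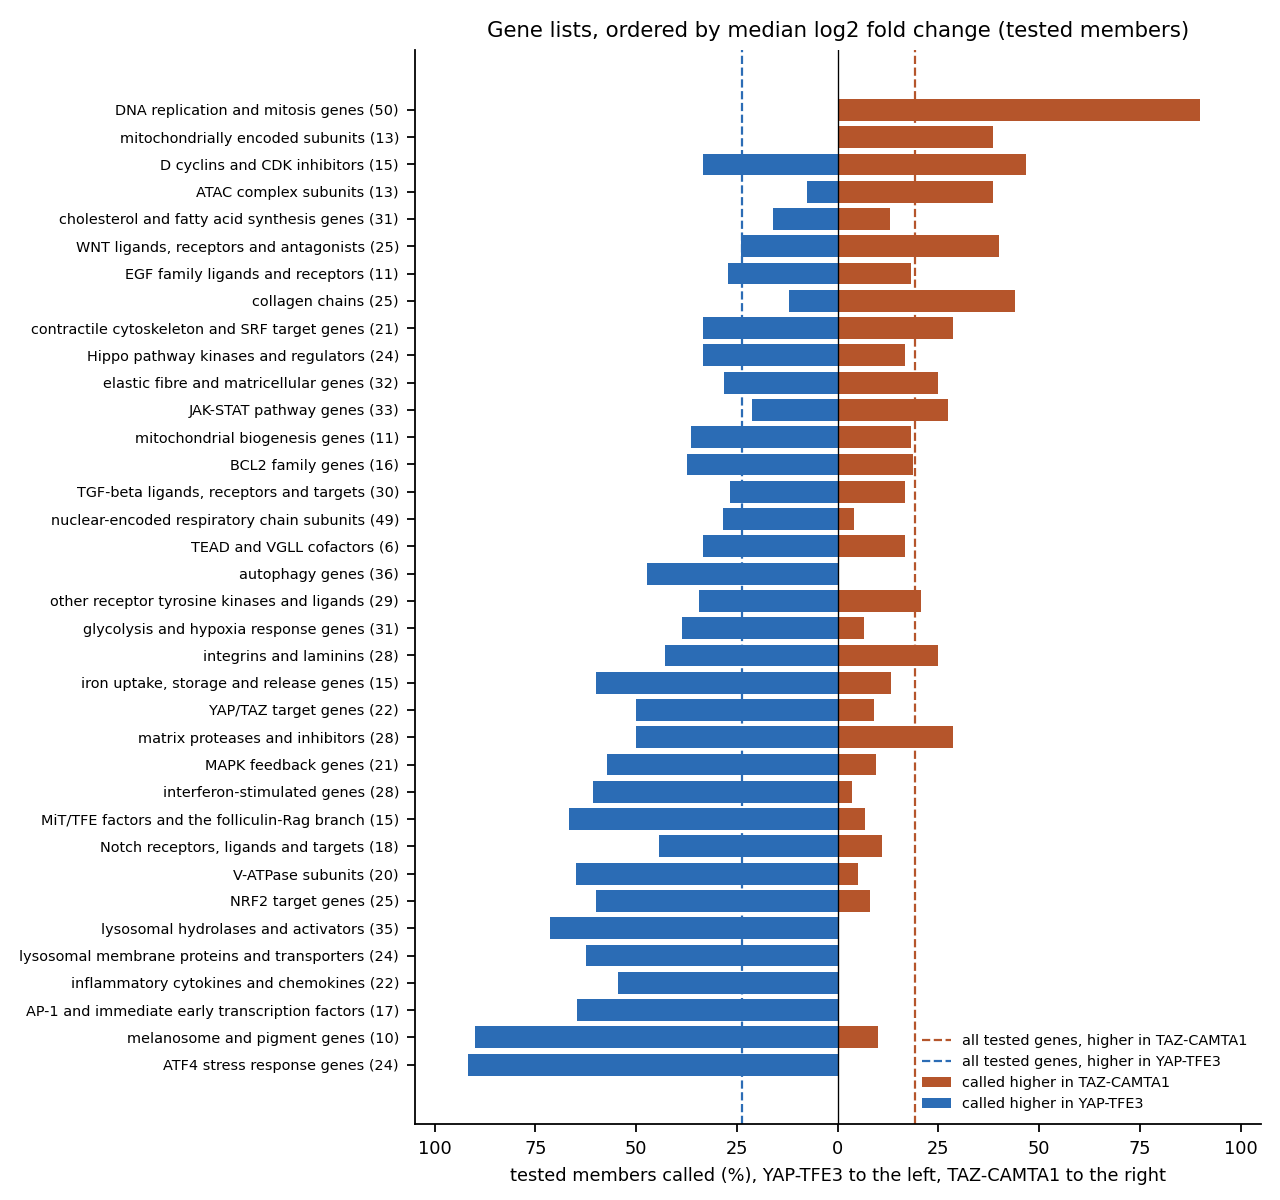
For each gene list, ordered by its median log2 fold change, bars show the percentage of tested members (number in parentheses) called higher in TAZ-CAMTA1 to the right and higher in YAP-TFE3 to the left; dashed lines mark the same percentages over all tested genes, 19.3 and 23.7. DNA replication and mitosis genes lie at the TAZ-CAMTA1 end and ATF4 stress response genes at the YAP-TFE3 end.

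Genes known as YAP/TAZ targets, the readout that both fusions share, were higher in YAP-TFE3 more often than in TAZ-CAMTA1. Of 22 listed and tested, 11 were called higher in YAP-TFE3 and 2 higher in TAZ-CAMTA1, with a median log2 fold change of -0.30 beside -0.01 for all genes. Against EV, edgeR called 9 of the 22 higher in TAZ-CAMTA1 (13 at an unadjusted p under 0.05), beside 3.39% of all tested genes. In YAP-TFE3, 16 were higher and 2 lower than EV, beside 26.4% and 21.9% of all tested genes. CCN1, a matricellular protein gene, was at 119, 132 and 132 CPM in TAZ-CAMTA1, 141, 148 and 132 CPM in YAP-TFE3 and 43.9, 41.9 and 35.5 CPM in EV, a log2 fold change between the fusions of -0.14 ± 0.11 (adjusted p = 0.309). It lay well above EV in both groups and was not called between them. CCN2, which encodes connective tissue growth factor, was at 113, 119 and 124 CPM in TAZ-CAMTA1, 202, 209 and 141 CPM in YAP-TFE3 and 26.3, 20.5 and 16.3 CPM in EV. Every TAZ-CAMTA1 library was below every YAP-TFE3 library, of which replicate 3 was lowest, and the log2 fold change was -0.63 ± 0.18 (adjusted p = 0.00617). AJUBA, a LIM-domain scaffold of the Hippo pathway, was at 203, 223 and 256 CPM in TAZ-CAMTA1, 440.0, 459 and 303 CPM in YAP-TFE3 and 66.9, 64.9 and 81.8 CPM in EV (-0.82 ± 0.15, adjusted p = 0.000107).

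ANKRD1, a nuclear ankyrin repeat protein and much used YAP target, was at 10.8, 8.88 and 5.61 CPM in YAP-TFE3 against 0.897, 1.52 and 1.03 CPM in TAZ-CAMTA1 and 1.57, 0.831 and 0.814 CPM in EV (-2.86 ± 0.39, adjusted p = 2.10e-06). Its TAZ-CAMTA1 and EV libraries overlapped. GADD45A, a stress-induced growth arrest gene, was at 18.2, 18.4 and 21.1 CPM in TAZ-CAMTA1 and 86.8, 86.6 and 39.5 CPM in YAP-TFE3 (-1.88 ± 0.20, adjusted p = 3.80e-08). MYOF, which encodes the membrane protein myoferlin, was at 264, 296 and 294 CPM in TAZ-CAMTA1, 750.0, 752 and 663 CPM in YAP-TFE3 and 171, 176 and 174 CPM in EV, so both groups lay above EV and YAP-TFE3 further (-1.34 ± 0.12, adjusted p = 2.02e-09). Of the 6 tested TEAD and VGLL genes, 2 were called higher in YAP-TFE3 and 1 in TAZ-CAMTA1; 1 gene was called without TAZ-CAMTA1 replicate 1 or without YAP-TFE3 replicate 1, and without YAP-TFE3 replicate 3 the called genes were 3, all higher in YAP-TFE3. VGLL3, a TEAD cofactor, was at 0.299, 0.236 and 0.273 against 1.18, 0.738 and 0.987 CPM (-1.83 ± 0.41, adjusted p = 0.000911). TEAD1, one of the DNA-binding TEAD factors, was at 357, 392 and 410.2 CPM in TAZ-CAMTA1, 586, 533 and 409.6 CPM in YAP-TFE3 and 245, 212 and 198 CPM in EV. The difference between the fusions (-0.40 ± 0.13, adjusted p = 0.0146) was small, and it lost its call without TAZ-CAMTA1 replicate 1 (adjusted p = 0.0660), YAP-TFE3 replicate 1 (0.0997) or YAP-TFE3 replicate 2 (0.0664), with library totals in place of TMM (0.0944) or with only the compared groups in the fit (0.0587). TEAD4 was at 44.3, 48.2 and 42.6 against 56.6, 59.9 and 42.1 CPM (-0.23 ± 0.10, adjusted p = 0.0805), and without YAP-TFE3 replicate 3 it was called higher in YAP-TFE3 (-0.37, adjusted p = 0.00169).

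Hippo pathway kinases and regulators were divided, with 4 of 24 higher in TAZ-CAMTA1, 8 higher in YAP-TFE3 and a median log2 fold change of 0.03. LATS1, one of the kinases that phosphorylate YAP and TAZ, was at 30.7, 32.01 and 33.2 CPM in TAZ-CAMTA1 and 23.6, 21.4 and 18.4 CPM in YAP-TFE3 (0.60 ± 0.10, adjusted p = 3.99e-05). Its TAZ-CAMTA1 level did not pass the test against EV (0.04, adjusted p = 0.893), and its YAP-TFE3 level was lower than EV (-0.56, adjusted p = 7.33e-05).

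Lysosomal genes separated the fusions, on the YAP-TFE3 side. Among 35 lysosomal hydrolases and their activators, 25 were called higher in YAP-TFE3 and 10 were not called, with a median log2 fold change of -0.63. Among 24 lysosomal membrane proteins and transporters, 15 were higher in YAP-TFE3 and 9 were not called (median -0.70). Of 20 tested V-ATPase subunits, which build the pump that acidifies the lysosome, 13 were higher in YAP-TFE3 and 1 in TAZ-CAMTA1 (median -0.54). Without YAP-TFE3 replicate 3 the counts for these groups were 22, 15 and 14, and 1, 2 and 1 were then called higher in TAZ-CAMTA1. Against EV, YAP-TFE3 was higher for 24 hydrolases, 17 membrane genes and 13 V-ATPase genes, and TAZ-CAMTA1 for 1 hydrolase and 1 membrane gene.

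ACP5, an acid phosphatase, was at 21.5, 18.3 and 17.99 CPM in TAZ-CAMTA1, 107, 121 and 147 CPM in YAP-TFE3 and 21.5, 25.8 and 33.02 CPM in EV. The YAP-TFE3 libraries were all several times above the others, which overlapped, and the log2 fold change was -2.70 ± 0.18 (adjusted p = 2.06e-11). NEU1, a sialidase, was at 24.6, 23.2 and 28.7 against 74.9, 82.02 and 118 CPM (-1.84 ± 0.17, adjusted p = 3.70e-09), and ASAH1, the acid ceramidase, at 61.1, 69.6 and 74.2 against 235, 210.0 and 263 CPM (-1.79 ± 0.13, adjusted p = 1.41e-10). CTSD, the aspartic protease cathepsin D, was at 123, 113 and 142 CPM in TAZ-CAMTA1 and 338, 396 and 415 CPM in YAP-TFE3 (-1.60 ± 0.14, adjusted p = 1.25e-09). In the membrane group GPNMB, a glycoprotein of lysosomes and melanosomes, was at 137, 119.8 and 132 CPM in TAZ-CAMTA1, 939, 983 and 1105 CPM in YAP-TFE3 and 52.6, 57.5 and 67.8 CPM in EV. Both groups lay above EV, TAZ-CAMTA1 by a log2 fold change of 1.13 (adjusted p = 8.28e-05) and YAP-TFE3 by 4.09 (adjusted p = 1.02e-14), and they differed from each other by -2.96 ± 0.17 (adjusted p = 2.53e-12). CTNS, the lysosomal cystine transporter, was 3.27-fold higher in YAP-TFE3, and SLC17A5, a sialic acid transporter, 3.13-fold. Among the V-ATPase genes, ATP6V0D2 had no count in any TAZ-CAMTA1 or EV library and was at 2.65, 2.37 and 0.846 CPM in YAP-TFE3, at least 19.3-fold higher when TAZ-CAMTA1 is set to 3 counts per library. ATP6V1E1, a stalk subunit, was at 78.6, 75.3 and 76.9 against 187, 182 and 218 CPM (-1.35 ± 0.08, adjusted p = 2.19e-12).

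In the cell, mTORC1 and the folliculin-Rag branch control whether MiT/TFE factors enter the nucleus. Of 15 genes for the MiT/TFE factors themselves and this branch, 10 were higher in YAP-TFE3 and 1 in TAZ-CAMTA1 (median -0.52; 9 and 1 without YAP-TFE3 replicate 3). RRAGD (ENSG00000025039, chr6:89364616-89412273), a Rag GTPase, was at 4.33, 3.24 and 4.03 CPM in TAZ-CAMTA1, 101.2, 101.2 and 120.1 CPM in YAP-TFE3 and 2.93, 3.25 and 4.499 CPM in EV. TAZ-CAMTA1 and EV overlapped, and YAP-TFE3 was 27.8-fold above TAZ-CAMTA1 (-4.80 ± 0.20, adjusted p = 4.52e-15). FLCN, the folliculin gene, was at 29.3, 27.8 and 29.9 against 62.7, 64.6 and 64.3 CPM (-1.14 ± 0.09, adjusted p = 5.43e-10), and its partner genes FNIP1 and FNIP2 differed by -0.82 ± 0.15 (adjusted p = 7.04e-05) and -0.77 ± 0.09 (adjusted p = 2.62e-07). RRAGC differed by -0.91 ± 0.10 (adjusted p = 5.75e-08). TFEB, a paralog of TFE3, went the other way, at 13.2, 12.6 and 10.5 CPM in TAZ-CAMTA1, 4.22, 5.13 and 5.699 CPM in YAP-TFE3 and 9.45, 9.48 and 10.7 CPM in EV (1.26 ± 0.15, adjusted p = 3.69e-07). MITF, the founding member of the family, was higher in YAP-TFE3 (-0.76 ± 0.13, adjusted p = 4.24e-05).

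Of 36 autophagy genes, 17 were higher in YAP-TFE3 and 19 were not called (median -0.19; 14 without YAP-TFE3 replicate 3, when 3 were called higher in TAZ-CAMTA1). The share called was 47.2%, near the 43.0% of all genes, and 23.7% of all genes were higher in YAP-TFE3. The largest differences were in WIPI1, a phosphoinositide-binding protein of the forming autophagosome, at 27.2, 23.7 and 28.1 against 76.7, 76.03 and 80.1 CPM (-1.56 ± 0.11, adjusted p = 3.70e-11), GABARAPL1 (-1.42 ± 0.10, adjusted p = 2.27e-11) and MAP1LC3B (-1.39 ± 0.09, adjusted p = 3.01e-11), both ubiquitin-like proteins of the autophagosome membrane, and SQSTM1, the p62 cargo receptor (-1.32 ± 0.12, adjusted p = 3.65e-09).

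A RefSeq promoter sequence, running from 250 bases before the start to 50 bases after it, was matched by symbol for 13182 tested genes. TCACGTGA was present in 1.69% of all of them, in 2.29% of those called higher in YAP-TFE3, in 1.23% of those called higher in TAZ-CAMTA1 and in 1.57% of those not called. It was in 2 of 22 hydrolase promoters, 3 of 20 lysosomal membrane promoters and 2 of 14 V-ATPase promoters. The shorter CACGTG, searched on both strands like all motifs here and included in TCACGTGA, was in 9.67% of all promoters and in 5 of 22, 5 of 20 and 4 of 14 of these same groups. Among the 482 promoters of genes at least 4-fold higher in YAP-TFE3, TCACGTGA was in 0.622%, TGACTCA, the AP-1 sequence, in 7.68% against 3.4% of all promoters, and GGAATG, a TEAD sequence, in 14.9% against 11.3%. Of the 39 promoters of genes at least 4-fold higher in TAZ-CAMTA1, 8 held GGAATG and 5 held TGACTCA. These are matches of letters, not measured binding.

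Of the 10 tested melanosome and pigment genes, 9 were higher in YAP-TFE3 and 1 in TAZ-CAMTA1, and their median log2 fold change was -1.58 (9 called in all, each higher in YAP-TFE3, without YAP-TFE3 replicate 3). MiT/TFE factors are known for controlling this group in pigment cells. PMEL, the fibril protein of the melanosome, was at 1.61, 0.946 and 0.909 CPM in TAZ-CAMTA1, 6.58, 6.42 and 6.07 CPM in YAP-TFE3 and 0.716, 1.09 and 0.670 CPM in EV (-2.47 ± 0.28, adjusted p = 1.72e-07). SLC45A2, a melanosomal transporter, was at 2.95, 2.09 and 2.21 against 10.6, 12.7 and 13.9 CPM (-2.36 ± 0.22, adjusted p = 6.50e-09) and OCA2, another, at 0.784, 0.709 and 0.485 against 3.04, 3.17 and 4.99 CPM (-2.51 ± 0.29, adjusted p = 1.46e-07). These levels are low, and TYRP1, an enzyme of pigment synthesis, was below EV in both groups, with log2 fold changes of -1.80 in TAZ-CAMTA1 (adjusted p = 1.72e-10) and -1.23 in YAP-TFE3 (adjusted p = 2.93e-09). DCT was also below EV in both (-1.54, adjusted p = 0.000204, and -0.86, adjusted p = 0.00314). MLANA was the 1 member higher in TAZ-CAMTA1 (0.91 ± 0.29, adjusted p = 0.0150) and was below EV in YAP-TFE3 (-0.79, adjusted p = 0.0334). Against EV, 6 of the 10 were higher and 3 lower in YAP-TFE3.

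The list at the far end on the YAP-TFE3 side was that of ATF4 stress response genes. ATF4 is the transcription factor through which amino acid shortage and unfolded proteins turn on amino acid synthesis, tRNA charging and stress genes. Of 24 tested members, 22 were higher in YAP-TFE3 and 2 were not called, with a median log2 fold change of -1.70, and without YAP-TFE3 replicate 3 the count was 23. Against EV, 23 were higher in YAP-TFE3, and in TAZ-CAMTA1 edgeR called 0, with 4 at an unadjusted p under 0.05 (3 higher, 1 lower) and 0 by DESeq2. DDIT3, which encodes CHOP, was at 10.1, 9.69 and 12.3 CPM in TAZ-CAMTA1, 167, 171 and 36.7 CPM in YAP-TFE3 and 10.2, 10.5 and 16.03 CPM in EV. YAP-TFE3 replicate 3 lay far below the other YAP-TFE3 libraries and still above all TAZ-CAMTA1 libraries, and the log2 fold change was -3.54 ± 0.35 (adjusted p = 1.84e-08) with it and -3.98 without it. FGF21 had at most 3 counts in each TAZ-CAMTA1 library and was at 4.16, 5.17 and 0.536 CPM in YAP-TFE3, at least 32.4-fold higher. NUPR1, a stress-induced nuclear protein, was at 40.5, 30.3 and 52.7 against 479.6, 539 and 238 CPM (-3.35 ± 0.29, adjusted p = 1.66e-09). STC2, a secreted glycoprotein, was at 45.5, 45.96 and 49.3 CPM in TAZ-CAMTA1 and 585, 599 and 209 CPM in YAP-TFE3 (-3.31 ± 0.26, adjusted p = 3.28e-10; -3.66 without YAP-TFE3 replicate 3).

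ATF4 mRNA itself differed less, at 402, 398 and 414 CPM in TAZ-CAMTA1 and 658, 690.1 and 524 CPM in YAP-TFE3 (-0.63 ± 0.09, adjusted p = 8.18e-06). GDF15, a secreted stress cytokine, was at 0.374, 0.270 and 0.697 CPM in TAZ-CAMTA1 and 67.2, 73.6 and 16.5 CPM in YAP-TFE3 (-6.83 ± 0.49, adjusted p = 7.82e-11). WARS1, the cytosolic tryptophanyl-tRNA synthetase, was at 223, 189 and 264 against 1457, 1589 and 868 CPM (-2.53 ± 0.18, adjusted p = 7.82e-11). Among the 5 protein-coding genes with the largest difference in CPM at 2-fold or more on this side were also a pair of chaperones, HSPA5 of the endoplasmic reticulum at 1134, 1085 and 1084 against 3111, 3204 and 2201 CPM (-1.37 ± 0.11, adjusted p = 5.48e-10) and HSPA9 of the mitochondria at 566, 624 and 549 against 2134, 2082 and 1186 CPM (-1.64 ± 0.15, adjusted p = 4.35e-09). TGATGCAA was in 0.577% of all promoters, in 2 of the 19 matched promoters of the ATF4 list and in 2.28% of those at least 4-fold higher in YAP-TFE3.

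**Figure D3:**
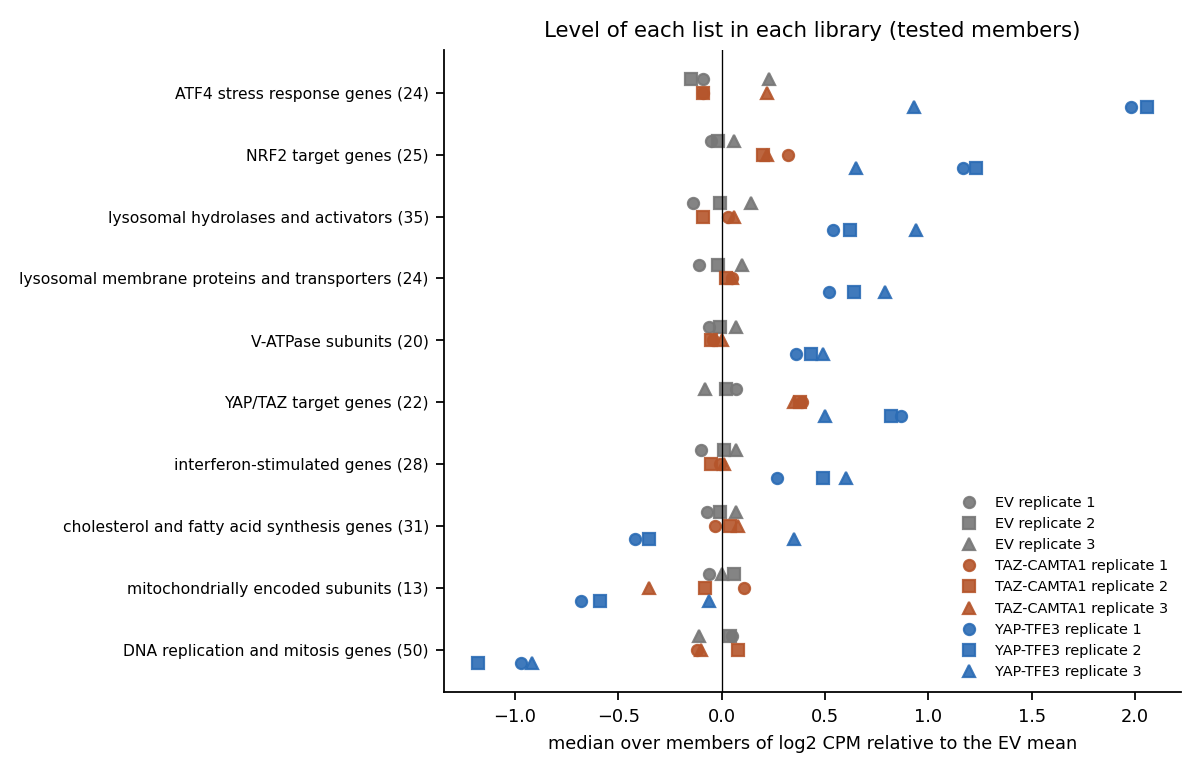
Each point is the median, over the tested members of a list (number in parentheses), of log2 CPM in 1 library relative to the EV mean, after adding 0.5 CPM; colors mark the groups and symbols the replicates. The 3 TAZ-CAMTA1 libraries lie near EV for most lists, and YAP-TFE3 replicate 3 (triangle) lies at 0.93 for ATF4 genes against 1.98 and 2.06 in YAP-TFE3 replicates 1 and 2.

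DNA replication and mitosis genes lay at the opposite end of the lists. All 50 were tested, 45 were higher in TAZ-CAMTA1 and 5 were not called, and the median log2 fold change was 1.03 (43 called without YAP-TFE3 replicate 3). Against EV, edgeR called 1 of them higher in TAZ-CAMTA1 and 43 lower in YAP-TFE3. RRM2, a subunit of ribonucleotide reductase, was at 111, 134 and 124 CPM in TAZ-CAMTA1, 14.9, 15.8 and 50.3 CPM in YAP-TFE3 and 119, 120.0 and 111 CPM in EV. TAZ-CAMTA1 and EV overlapped, YAP-TFE3 replicate 3 was the highest of its group, and the log2 fold change was 2.18 ± 0.27 (adjusted p = 6.21e-07) and 3.00 without that library. MCM10, a replication initiation factor, was at 20.2, 26.04 and 20.8 against 2.91, 2.37 and 11.5 CPM (1.98 ± 0.32, adjusted p = 1.75e-05; 3.08 without YAP-TFE3 replicate 3), and TYMS, thymidylate synthase, at 56.7, 67.9 and 57.9 against 12.5, 12.6 and 26.2 CPM (1.82 ± 0.20, adjusted p = 6.25e-08). TOP2A, the mitotic topoisomerase, was at 404, 469 and 503 CPM in TAZ-CAMTA1, 228, 165 and 153 CPM in YAP-TFE3 and 518, 443 and 413 CPM in EV (1.33 ± 0.17, adjusted p = 1.19e-06). In TOP2A, replicate 3 was the lowest of the YAP-TFE3 libraries. FAM111B, a protease gene expressed with the cell cycle, was at 12.6, 15.2 and 17.3 against 0.851, 0.338 and 3.84 CPM (3.13 ± 0.39, adjusted p = 5.98e-07; 4.67 without YAP-TFE3 replicate 3).

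Of the 15 D cyclins, their kinases, CDK inhibitors and retinoblastoma family genes, 7 were higher in TAZ-CAMTA1 and 5 in YAP-TFE3 (median 0.17). CDKN2B, an inhibitor of CDK4 and CDK6, was at 21.4, 28.3 and 29.9 CPM in TAZ-CAMTA1, 142, 129 and 57.7 CPM in YAP-TFE3 and 39.5, 37.1 and 32.9 CPM in EV (-2.04 ± 0.21, adjusted p = 4.37e-08). CDKN2C, of the same family, was at 43.6, 41.97 and 50.2 against 18.7, 17.8 and 28.6 CPM, thus in the other direction (1.06 ± 0.15, adjusted p = 4.23e-06). CCND1, cyclin D1, was at 146, 158 and 140.0 CPM in TAZ-CAMTA1 and 255, 255 and 259.9 CPM in YAP-TFE3 (-0.79 ± 0.12, adjusted p = 9.77e-06).

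Extracellular matrix genes went both ways. Of 25 collagen chains, 11 were higher in TAZ-CAMTA1 and 3 in YAP-TFE3 (median 0.09). COL1A1 was at 44.6, 49.8 and 26.2 CPM in TAZ-CAMTA1, 9.36, 9.31 and 6.66 CPM in YAP-TFE3 and 23.98, 19.2 and 13.8 CPM in EV (2.25 ± 0.35, adjusted p = 1.21e-05), and COL3A1, which like it forms fibrils, was at 23.2, 19.3 and 20.7 against 7.39, 8.39 and 8.72 CPM (1.36 ± 0.17, adjusted p = 5.18e-07). The 3 chains on the other side were the basement membrane chains COL4A3 (0.143 CPM on average in TAZ-CAMTA1 and 1.08 in YAP-TFE3) and COL4A4 (0.270 against 1.398 CPM), both at low levels, and COL15A1, at 478, 465 and 460.1 CPM in TAZ-CAMTA1 and 1276, 1400 and 809 CPM in YAP-TFE3 (-1.31 ± 0.22, adjusted p = 2.54e-05). Of 32 elastic fibre and matricellular genes, 8 were higher in TAZ-CAMTA1 and 9 in YAP-TFE3 (median 0.00). MFAP5, a microfibril protein, was at 1.27, 1.86 and 1.696 CPM in TAZ-CAMTA1, 0, 0.154 and 0.0282 CPM in YAP-TFE3 and 0.171, 0.0755 and 0.0957 CPM in EV, and was 24.8-fold higher in TAZ-CAMTA1 (4.63 ± 0.47, adjusted p = 2.43e-08; 6.38 without YAP-TFE3 replicate 2). FBLN5, fibulin 5, an organizer of elastic fibres, was at 21.1, 20.02 and 23.2 CPM in TAZ-CAMTA1, 65.5, 68.6 and 99.7 CPM in YAP-TFE3 and 0.716, 0.831 and 1.24 CPM in EV, so both fusions lay far above EV and the YAP-TFE3 libraries above the TAZ-CAMTA1 libraries (-1.86 ± 0.16, adjusted p = 2.56e-09). EFEMP1, fibulin 3, differed by -3.02 ± 0.18 (adjusted p = 3.30e-12) and LOX, the collagen and elastin cross-linking oxidase, by -2.01 ± 0.17 (adjusted p = 1.05e-09).

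Integrins and laminins numbered 7 higher in TAZ-CAMTA1 and 12 higher in YAP-TFE3 of 28 tested (median -0.23; 4 and 12 without YAP-TFE3 replicate 3). LAMA1 (ENSG00000101680, chr18:6941742-7117797), a laminin chain of early basement membranes, was at 7.29, 8.24 and 7.09 CPM in TAZ-CAMTA1, 296, 311 and 363 CPM in YAP-TFE3 and 3.44, 3.44 and 3.54 CPM in EV. TAZ-CAMTA1 was above EV by 1.12 (adjusted p = 7.25e-06) and YAP-TFE3 by 6.54 (adjusted p = 2.24e-20), and the fusions differed 42.9-fold (-5.42 ± 0.13, adjusted p = 2.77e-19). ITGB3, integrin beta 3, was at 10.2, 11.6 and 10.6 against 96.6, 102 and 94.3 CPM (-3.18 ± 0.14, adjusted p = 1.57e-14). ITGB8, integrin beta 8, was at 3.399, 2.77 and 3.21 against 0.720, 1.01 and 1.27 CPM and was higher in TAZ-CAMTA1 (1.63 ± 0.20, adjusted p = 5.46e-07). Of 28 matrix proteases and inhibitors, 8 were higher in TAZ-CAMTA1 and 14 in YAP-TFE3 (median -0.39). PLAU, the protease urokinase, was at 31.4, 31.4 and 24.7 against 89.8, 97.3 and 87.1 CPM (-1.65 ± 0.19, adjusted p = 1.37e-07). MMP3 and MMP1, stromelysin and collagenase, were also higher in YAP-TFE3, at mean levels of 0.954 and 2.29 CPM.

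Contractile cytoskeleton and SRF target genes split into 6 higher in TAZ-CAMTA1 and 7 higher in YAP-TFE3 of 21 (median 0.03). CNN1, calponin of smooth muscle, was at 3.29, 4.15 and 2.63 against 13.6, 15.99 and 18.5 CPM (-2.26 ± 0.26, adjusted p = 1.76e-07), and TAGLN, transgelin, was higher in TAZ-CAMTA1 at 14.8, 16.1 and 14.1 against 6.74, 7.81 and 9.25 CPM (0.91 ± 0.22, adjusted p = 0.00141). TPM1, a tropomyosin, differed by -0.78 ± 0.15 (adjusted p = 0.000197). MYH10, a non-muscle myosin heavy chain, was at 350.0, 367 and 346 against 219, 214 and 212 CPM (0.72 ± 0.07, adjusted p = 6.29e-09).

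AP-1 and immediate early factors lay on the YAP-TFE3 side, with 11 of 17 higher there and 6 not called (median -1.19; 8 without YAP-TFE3 replicate 3, when 1 was called higher in TAZ-CAMTA1). MAFF, a small Maf factor, was at 6.99, 6.04 and 7.09 CPM in TAZ-CAMTA1 and 70.9, 77.5 and 40.7 CPM in YAP-TFE3 (-3.23 ± 0.21, adjusted p = 1.33e-11), and ATF3, a stress-induced factor, at 5.603, 7.29 and 6.72 against 70.2, 71.1 and 24.9 CPM (-3.08 ± 0.25, adjusted p = 5.22e-10). EGR1, an immediate early zinc finger gene, was much higher in 1 library than in the others. It was at 11.6, 10.2 and 79.8 CPM in YAP-TFE3 against 4.37, 4.02 and 4.82 CPM in TAZ-CAMTA1, and its log2 fold change of -2.94 ± 0.54 (adjusted p = 0.000107) became -1.30 (adjusted p = 0.00213) without YAP-TFE3 replicate 3. Of 21 feedback genes of the MAPK pathway, 12 were higher in YAP-TFE3 and 2 in TAZ-CAMTA1 (median -0.45). DUSP5, a phosphatase of ERK, was at 12.8, 10.7 and 7.69 against 56.1, 55.95 and 26.97 CPM (-2.15 ± 0.22, adjusted p = 3.15e-08).

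Growth factors and receptors were mixed. In the EGF family, 2 of 11 were higher in TAZ-CAMTA1 and 3 in YAP-TFE3 (median 0.13), and 3 were called without YAP-TFE3 replicate 2. The share called was 45.5%, beside 43.0% of all genes. The ligands EREG, at 0.959 CPM on average in TAZ-CAMTA1 against 3.54 CPM in YAP-TFE3 (-1.86 ± 0.31, adjusted p = 3.24e-05), and EGF, at 2.904 against 8.03 CPM (-1.46 ± 0.17, adjusted p = 1.95e-07), were higher in YAP-TFE3, whereas the receptor EGFR was higher in TAZ-CAMTA1, at 185, 204 and 198 against 133, 130.3 and 128 CPM (0.59 ± 0.07, adjusted p = 2.62e-07). Among 29 other receptor tyrosine kinases and their ligands, 6 were higher in TAZ-CAMTA1 and 10 in YAP-TFE3 (median -0.22). KITLG, the stem cell factor, was at 2.17, 1.66 and 2.54 against 15.6, 10.4 and 8.04 CPM (-2.41 ± 0.27, adjusted p = 1.08e-07). VEGFA, the endothelial growth factor, was at 33.9, 28.9 and 34.3 CPM in TAZ-CAMTA1 and 190.1, 188 and 52.02 CPM in YAP-TFE3, where replicate 3 was again far below the others. Its log2 fold change was -2.15 ± 0.28 (adjusted p = 1.19e-06) and -2.55 without that library. PDGFA, a platelet-derived growth factor, was at 24.02, 25.3 and 24.6 against 94.6, 97.7 and 59.3 CPM (-1.76 ± 0.16, adjusted p = 3.10e-09).

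In the TGF-beta group 5 of 30 were higher in TAZ-CAMTA1 and 8 in YAP-TFE3 (median -0.08), and 7 in all were called without YAP-TFE3 replicate 2. The share called, 43.3%, was near the 43.0% of all genes. TGFB3, a TGF-beta ligand, was at 34.1, 27.8 and 28.3 CPM in TAZ-CAMTA1, 7.49, 8.09 and 10.02 CPM in YAP-TFE3 and 23.5, 25.5 and 23.6 CPM in EV (1.81 ± 0.14, adjusted p = 5.15e-10). BMP7, a bone morphogenetic protein, was at 17.5, 15.1 and 14.7 against 53.99, 55.7 and 42.4 CPM, in the other direction (-1.69 ± 0.16, adjusted p = 1.02e-08). Of 25 WNT ligands, receptors and antagonists, 10 were higher in TAZ-CAMTA1 and 6 in YAP-TFE3 (median 0.15). NKD2, an inhibitor of WNT signalling, was at 0.112, 0.236 and 0.151 against 1.08, 0.646 and 0.705 CPM (-2.23 ± 0.37, adjusted p = 3.36e-05). DKK3, the most abundant of them in CPM, was at 548, 519.9 and 461 against 972, 1051 and 1010 CPM (-0.99 ± 0.13, adjusted p = 9.07e-07). Of 18 Notch genes, 8 were higher in YAP-TFE3 and 2 in TAZ-CAMTA1 (median -0.53). DLL3, an inhibitory Notch ligand, was at 6.35, 4.42 and 7.96 against 34.6, 37.8 and 48.1 CPM (-2.68 ± 0.16, adjusted p = 3.02e-12), and HEYL, a target transcription factor, at 2.76, 2.701 and 2.24 against 4.38, 5.47 and 10.5 CPM (-1.41 ± 0.30, adjusted p = 0.000573). The receptor NOTCH3 was at 119, 102 and 99.2 against 174, 210.4 and 234 CPM (-0.95 ± 0.16, adjusted p = 3.83e-05), and LFNG, the fringe glycosyltransferase, was higher in TAZ-CAMTA1 at 3.81, 4.36 and 4.21 against 1.73, 1.78 and 1.72 CPM (1.24 ± 0.19, adjusted p = 8.92e-06).

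Of 33 genes of the JAK-STAT pathway, 9 were higher in TAZ-CAMTA1 and 7 in YAP-TFE3 (48.5% called beside 43.0% of all genes, median -0.02). Its ligands IL6, at 0.397 CPM on average in TAZ-CAMTA1 against 2.27 CPM in YAP-TFE3 (-2.51 ± 0.35, adjusted p = 3.59e-06), and LIF, at 1.27 against 5.22 CPM (-2.05 ± 0.23, adjusted p = 1.26e-07), were higher in YAP-TFE3. So was the receptor IL6R, at 19.2, 20.3 and 19.2 against 60.3, 62.9 and 73.1 CPM (-1.74 ± 0.11, adjusted p = 4.52e-12), while SOCS2, a feedback inhibitor, was higher in TAZ-CAMTA1 (1.04 ± 0.12, adjusted p = 1.22e-07). Of 22 inflammatory cytokines and chemokines, 12 were higher in YAP-TFE3 and 10 were not called (median -1.0), 7 were called without YAP-TFE3 replicate 2, and without YAP-TFE3 replicate 3 there was also 1 higher in TAZ-CAMTA1. The interleukin genes IL33 and IL32 were at 3.31 and 24.2 CPM in YAP-TFE3 on average and at 0.181 and 2.22 CPM in TAZ-CAMTA1 (-4.17 ± 0.40, adjusted p = 2.51e-08, and -3.45 ± 0.28, adjusted p = 5.48e-10). Of 28 interferon-stimulated genes, 17 were higher in YAP-TFE3 and 1 in TAZ-CAMTA1 (median -0.48; 16 and 5 without YAP-TFE3 replicate 3). IFI27 was at 1.68, 1.55 and 2.18 CPM in TAZ-CAMTA1 and 22.4, 31.6 and 71.6 CPM in YAP-TFE3 (-4.53 ± 0.32, adjusted p = 5.99e-11; -3.89 without YAP-TFE3 replicate 3), with replicate 3 the highest. IFI44L and OASL, which are induced by interferon as well, differed by -2.66 ± 0.49 (adjusted p = 0.000103; -1.84 without YAP-TFE3 replicate 3) and -1.90 ± 0.22 (adjusted p = 1.85e-07). IFI6, a small interferon-induced membrane protein gene, was at 32.8, 29.1 and 51.1 against 88.1, 112 and 194 CPM (-1.80 ± 0.23, adjusted p = 7.88e-07).

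In the BCL2 family 3 of 16 were higher in TAZ-CAMTA1 and 6 in YAP-TFE3 (median -0.05). BCL2A1, a survival protein, had at most 3 counts in each TAZ-CAMTA1 library and was at 3.83, 3.01 and 2.23 CPM in YAP-TFE3, at least 29.8-fold higher. HRK, a death-promoting member, was at 0.0747, 0.101 and 0.363 against 0.916, 1.41 and 0.705 CPM (-2.39 ± 0.40, adjusted p = 3.50e-05; -3.44 without TAZ-CAMTA1 replicate 3). BCL2 itself was at 6.16, 6.25 and 6.03 against 17.1, 17.3 and 13.1 CPM (-1.36 ± 0.18, adjusted p = 1.11e-06), and BMF, which promotes cell death like HRK, was higher in TAZ-CAMTA1, at 30.1, 22.7 and 25.2 against 10.01, 10.4 and 12.1 CPM (1.26 ± 0.13, adjusted p = 3.79e-08).

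Antioxidant genes controlled by NRF2 numbered 15 of 25 higher in YAP-TFE3 and 2 higher in TAZ-CAMTA1 (median -0.60; 18 and 3 without YAP-TFE3 replicate 3). SRXN1, sulfiredoxin, had the largest log2 fold change among them, toward TAZ-CAMTA1, and rested on 1 library, at 0, 0 and 2.51 CPM in TAZ-CAMTA1 and 0, 0.0922 and 0.0282 CPM in YAP-TFE3. Its value of 4.29 ± 1.26 (adjusted p = 0.0086) was -3.32 without TAZ-CAMTA1 replicate 3 and no longer called. AKR1C2, an aldo-keto reductase, had at most 3 counts in each TAZ-CAMTA1 library and was at 0.753, 0.738 and 0.508 CPM in YAP-TFE3, at least 6.57-fold higher. OSGIN1, an oxidative stress-induced growth inhibitor, was at 16.1, 13.7 and 9.99 against 145, 156 and 46.1 CPM (-3.13 ± 0.28, adjusted p = 2.44e-09; -3.51 without YAP-TFE3 replicate 3), and AKR1C3, close in sequence to AKR1C2 so that reads can be split between them, at 1.79, 1.08 and 1.21 against 10.9, 11.7 and 9.08 CPM (-2.96 ± 0.25, adjusted p = 1.50e-09). Of 15 iron genes, 9 were higher in YAP-TFE3 and 2 in TAZ-CAMTA1 (median -0.28). FTL, the ferritin light chain, had the largest CPM difference among protein-coding genes at least 2-fold higher in YAP-TFE3, at 2193, 1784 and 1746 CPM in TAZ-CAMTA1 against 5565, 6311 and 4422 CPM in YAP-TFE3 and 1618, 1783 and 2096 CPM in EV (-1.51 ± 0.13, adjusted p = 1.11e-09). SLC40A1, the iron exporter ferroportin, was at 0.187, 0.203 and 0.242 against 1.64, 1.08 and 4.51 CPM (-3.49 ± 0.52, adjusted p = 6.77e-06; -2.65 without YAP-TFE3 replicate 3). SLC39A14, a metal importer, differed by -1.39 ± 0.10 (adjusted p = 1.45e-10), and TFR2, a transferrin receptor, was higher in TAZ-CAMTA1 (1.24 ± 0.23, adjusted p = 0.000141).

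Of 31 glycolysis and hypoxia response genes, 12 were higher in YAP-TFE3 and 2 in TAZ-CAMTA1 (median -0.22). The share called, 45.2%, was near the 43.0% of all genes. SLC2A3, a glucose transporter, was at 49.8, 52.95 and 50.7 against 242, 242 and 175 CPM (-2.10 ± 0.20, adjusted p = 6.50e-09), ENO2, an enolase, at 10.5, 8.98 and 9.18 against 26.7, 30.5 and 31.3 CPM (-1.63 ± 0.22, adjusted p = 1.47e-06), and HK2, a hexokinase, at 39.8, 35.4 and 36.6 against 102, 98.6 and 54.6 CPM (-1.19 ± 0.16, adjusted p = 1.84e-06). Cholesterol and fatty acid synthesis genes changed with YAP-TFE3 replicate 3. With it, 4 of 31 were higher in TAZ-CAMTA1 and 5 in YAP-TFE3 (29.0% called, median 0.15), and without it 19 and 3. The 29.0% stood beside 43.0% of all genes. MVK, mevalonate kinase, was at 31.2, 35.1 and 33.2 CPM in TAZ-CAMTA1 and 13.9, 13.04 and 30.8 CPM in YAP-TFE3 (0.78 ± 0.21, adjusted p = 0.00446; 1.30 without that library). MVK lost its call with only the compared groups in the edgeR fit (adjusted p = 0.0525). STARD4, a sterol carrier, differed by -0.76 ± 0.13 (adjusted p = 6.32e-05). SCD, the stearoyl-CoA desaturase, was higher in YAP-TFE3, at 778, 807 and 822 against 1155, 1255 and 1558 CPM (-0.72 ± 0.12, adjusted p = 1.89e-05).

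Of 49 nuclear-encoded respiratory chain subunits, 14 were higher in YAP-TFE3 and 2 in TAZ-CAMTA1 (32.7% called beside 43.0% of all genes, median -0.13; 11 and 6 without YAP-TFE3 replicate 3). SDHB, a subunit of complex II, was at 56.2, 60.2 and 57.2 against 82.8, 83.9 and 97.95 CPM (-0.61 ± 0.08, adjusted p = 5.63e-07). Of the 13 mitochondrially encoded subunits, 5 were higher in TAZ-CAMTA1 and 8 were not called (median 0.34). The share called was 38.5%, beside 43.0% of all genes. The number called was 9 without YAP-TFE3 replicate 3, 2 without TAZ-CAMTA1 replicate 1 and 3 without TAZ-CAMTA1 replicate 2, YAP-TFE3 replicate 1 or YAP-TFE3 replicate 2. MT-CO3, a subunit of complex IV, was at 6666, 5762 and 4749 against 2896, 2967 and 4970 CPM (0.67 ± 0.17, adjusted p = 0.0021). Of 11 genes of mitochondrial biogenesis, 4 were higher in YAP-TFE3 and 2 in TAZ-CAMTA1 (median -0.04). PPARGC1A, the coactivator PGC-1alpha, was at 0.336, 0.540 and 0.273 CPM in TAZ-CAMTA1, 10.4, 7.93 and 8.35 CPM in YAP-TFE3 and 0.341, 0.378 and 0.526 CPM in EV, 23.1-fold higher in YAP-TFE3 (-4.53 ± 0.28, adjusted p = 7.52e-12).

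The ATAC complex is the histone acetyltransferase complex that the study followed as a partner of both fusions. Of its 13 tested subunits, 5 were higher in TAZ-CAMTA1 and 1 in YAP-TFE3 (46.2% called beside 43.0% of all genes), with a median of 0.16, and differences were small. Against EV, 7 were lower and 1 higher in YAP-TFE3 (median -0.26). In TAZ-CAMTA1 edgeR called 0 against EV, with 1 higher and 5 lower at an unadjusted p under 0.05. DESeq2 called 1 higher and 1 lower there. KAT2A, the acetyltransferase GCN5, was at 87.2, 89.3 and 80.1 CPM in TAZ-CAMTA1, 55.9, 55.2 and 49.2 CPM in YAP-TFE3 and 100.8, 96.9 and 110.4 CPM in EV (0.68 ± 0.08, adjusted p = 5.10e-07), and WDR5, a scaffold subunit, was at 123, 124 and 110.2 against 82.2, 89.3 and 84.7 CPM (0.48 ± 0.08, adjusted p = 3.81e-05). Against EV, KAT2A was lower in YAP-TFE3 (-0.94, adjusted p = 1.97e-09) and did not pass in TAZ-CAMTA1 (-0.26, adjusted p = 0.0719).

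Outside these lists, the protein-coding genes with the largest differences were named by rank. On the TAZ-CAMTA1 side NPTX1, a secreted neuronal pentraxin, came first, at 43.8, 40.7 and 28.2 CPM in TAZ-CAMTA1, 3.76, 4.21 and 2.37 CPM in YAP-TFE3 and 95.7, 105 and 83.3 CPM in EV. Both groups lay below EV, and TAZ-CAMTA1 was 10.9-fold above YAP-TFE3 (3.45 ± 0.27, adjusted p = 3.57e-10). Its rank was followed by FAM111B and by CD180, a Toll-like receptor homolog, at 5.08, 6.86 and 6.03 against 0.524, 0.615 and 0.959 CPM (3.08 ± 0.34, adjusted p = 7.63e-08), and ESX1, a homeobox gene, at 9.79, 11.5 and 9.63 against 1.11, 1.45 and 1.24 CPM (3.02 ± 0.29, adjusted p = 1.02e-08). CXCL14, a chemokine, was at 7.098, 4.73 and 7.33 CPM in TAZ-CAMTA1, 0.883, 1.11 and 0.621 CPM in YAP-TFE3 and 1.71, 1.28 and 1.72 CPM in EV, and here TAZ-CAMTA1 was above EV as well (2.02, adjusted p = 0.000132). SIX2, a homeobox gene of mesenchyme (2.69 ± 0.24, adjusted p = 3.82e-09), and SKIDA1 (2.38 ± 0.17, adjusted p = 7.82e-11) were near EV in TAZ-CAMTA1 and below it in YAP-TFE3. By difference in CPM among genes at least 2-fold higher, the leading gene was PEG10, a retrotransposon-derived imprinted gene, at 5180, 5523 and 5736 CPM in TAZ-CAMTA1, 2104, 2040 and 2954 CPM in YAP-TFE3 and 4060, 3454 and 3485 CPM in EV (1.21 ± 0.19, adjusted p = 1.87e-05). TGM2, tissue transglutaminase, was at 725, 656 and 531 against 303, 329 and 182 CPM (1.23 ± 0.17, adjusted p = 3.46e-06) and TUBA1A, an alpha tubulin, at 468, 441 and 373 against 116, 118 and 190.1 CPM (1.59 ± 0.19, adjusted p = 2.28e-07). MAP1A, a microtubule-associated protein that the study followed by PCR, was at 23.5, 24.9 and 21.3 CPM in TAZ-CAMTA1, 8.87, 8.98 and 11.9 CPM in YAP-TFE3 and 27.1, 33.2 and 38.7 CPM in EV (1.22 ± 0.14, adjusted p = 1.06e-07).

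On the YAP-TFE3 side DHRS9, a retinol dehydrogenase, had no count in any TAZ-CAMTA1 or EV library and was at 7.62, 8.05 and 5.47 CPM in YAP-TFE3, at least 69.5-fold higher. TAGAP, a GTPase-activating protein known from lymphocytes, NMRK2, a nicotinamide riboside kinase of muscle, CST2, a salivary cystatin, and TMEM144 had at most 3 counts in each TAZ-CAMTA1 library and were higher by at least 110.0-, 81.6-, 68.7- and 78.96-fold. TRPC7, a calcium-permeable channel, was at 0.112, 0.203 and 0.0303 CPM in TAZ-CAMTA1 and 45.97, 41.2 and 32.8 CPM in YAP-TFE3 (-8.42 ± 0.27, adjusted p = 3.38e-17; -9.13 without TAZ-CAMTA1 replicate 2). LCP1, the actin-bundling protein L-plastin, was at 1.01, 0.810 and 1.09 CPM in TAZ-CAMTA1, 199, 210.2 and 179 CPM in YAP-TFE3 and 1.296, 1.17 and 1.68 CPM in EV, a 201-fold difference between the fusions (-7.65 ± 0.23, adjusted p = 1.06e-17). SLAMF7, a leukocyte surface receptor, differed by -6.64 ± 0.29 (adjusted p = 1.40e-14) and MAT1A, the liver form of methionine adenosyltransferase, by -6.42 ± 0.20 (adjusted p = 3.38e-17). CRYAB, a small heat shock protein, was at 69.9, 66.4 and 56.7 CPM in TAZ-CAMTA1, 1157, 1273 and 2066 CPM in YAP-TFE3 and 4.54, 5.25 and 3.35 CPM in EV. Each fusion was above EV, TAZ-CAMTA1 by 3.86 (adjusted p = 6.46e-11) and YAP-TFE3 by 8.40 (adjusted p = 3.80e-17), and YAP-TFE3 was 23.3-fold above TAZ-CAMTA1 (-4.54 ± 0.22, adjusted p = 1.19e-13).

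**Figure D4:**
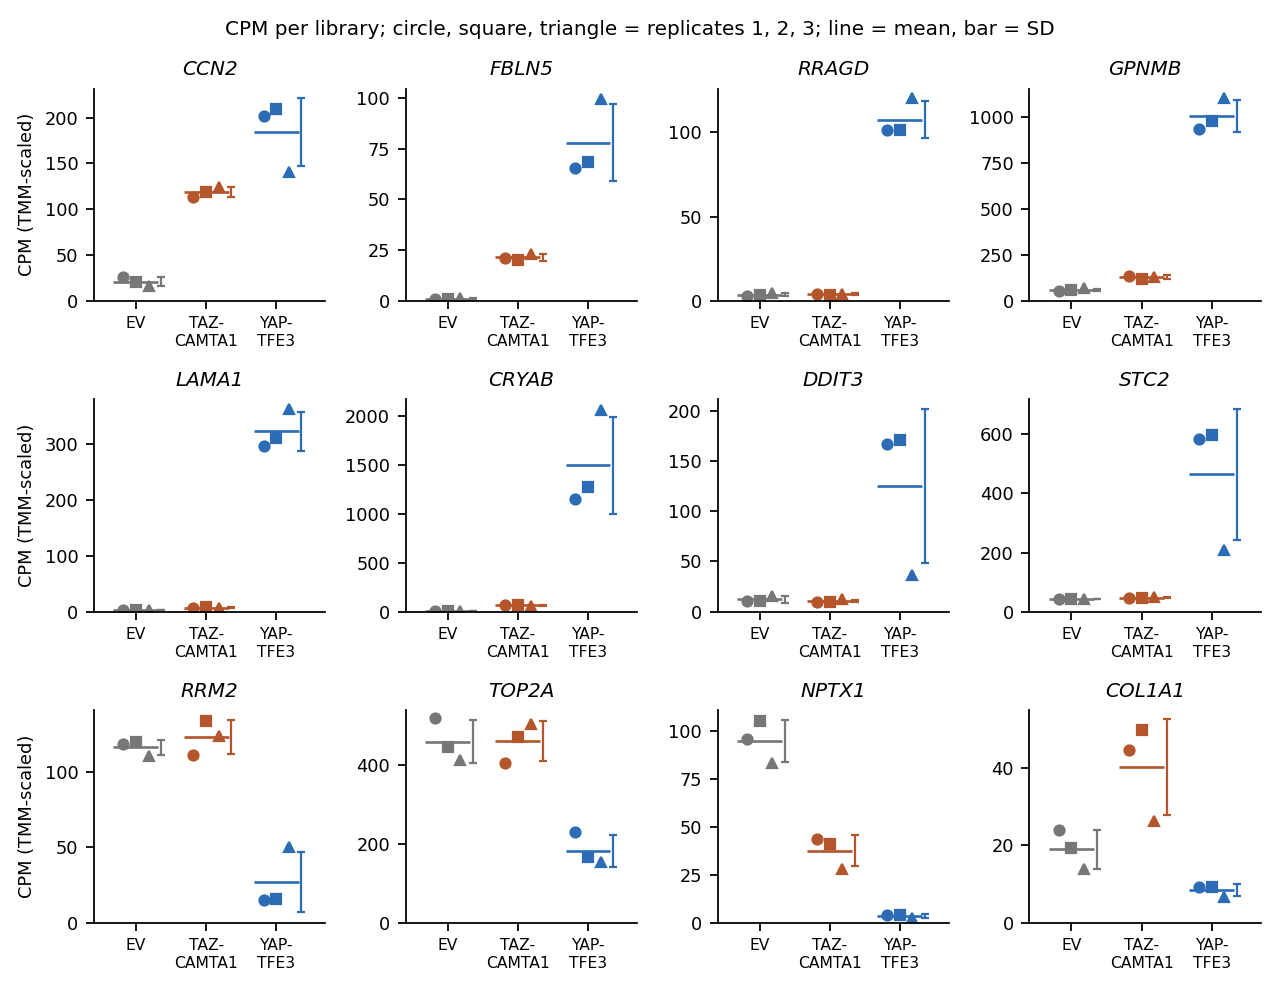
CPM (TMM-scaled, y axis from 0) of 12 named genes in the 3 libraries of EV, TAZ-CAMTA1 and YAP-TFE3; symbols mark replicates 1 to 3, horizontal lines the means and bars the SD. In DDIT3 and STC2 the YAP-TFE3 replicate 3 triangle lies far below the other YAP-TFE3 points, and in RRM2 it lies above them. In all 12 genes the TAZ-CAMTA1 and YAP-TFE3 points do not overlap, as in 47.8% of all tested genes. Some of the 12, such as NPTX1, RRM2 and COL1A1, were named by a rule that required this.

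The labelled cell type was examined with marker lists. Of 7 tested adipocyte markers, 4 were higher in YAP-TFE3, 1 was higher in TAZ-CAMTA1 and 2 were not called (median -0.55). Those printed next are all from the YAP-TFE3 side, and PLIN4 and FABP4 among them were at low levels. The lipase gene LPL was at 155, 161 and 114 against 269.7, 257 and 234 CPM (-0.82 ± 0.15, adjusted p = 9.90e-05) and the lipid droplet gene PLIN4 at 0.934, 1.49 and 1.45 against 5.37, 5.93 and 6.74 CPM (-2.21 ± 0.23, adjusted p = 4.08e-08), while FABP4, the adipocyte fatty acid-binding protein, had no count in TAZ-CAMTA1 or EV and was at 0.753, 0.646 and 0.480 CPM in YAP-TFE3, at least 6.17-fold higher. ADIPOQ, LEP and CIDEC were below the count minimum. Mesenchymal markers were 5 of 8 higher in TAZ-CAMTA1 and 1 higher in YAP-TFE3 (median 0.72). Of 10 endothelial markers, 6 were higher in TAZ-CAMTA1 and 1 in YAP-TFE3 (median 0.71). Against EV, 7 were lower in YAP-TFE3 (median -0.66), while 1 was higher and 1 lower in TAZ-CAMTA1 (median -0.04). TIE1, the marker higher in YAP-TFE3, differed by -0.37 (adjusted p = 0.0249). It lost its call without TAZ-CAMTA1 replicate 3 (adjusted p = 0.0933) or YAP-TFE3 replicate 2 (0.101). CDH5, the endothelial cadherin, was at 63.2, 56.9 and 38.6 CPM in TAZ-CAMTA1, 24.2, 25.6 and 13.3 CPM in YAP-TFE3 and 42.5, 54.1 and 30.8 CPM in EV (1.33 ± 0.29, adjusted p = 0.000683). KDR, the main VEGF receptor, was at 46.1, 36.2 and 28.7 against 20.5, 18.7 and 15.6 CPM (1.02 ± 0.22, adjusted p = 0.00052), and TEK, the angiopoietin receptor, at 59.1, 56.2 and 57.4 CPM in TAZ-CAMTA1, 33.5, 34.2 and 40.1 CPM in YAP-TFE3 and 24.8, 28.6 and 28.5 CPM in EV (0.68 ± 0.19, adjusted p = 0.00632). Of 5 tested epithelial markers, 3 were higher in TAZ-CAMTA1 (2, and 1 higher in YAP-TFE3, without YAP-TFE3 replicate 3), among them the keratin gene KRT8 at 215, 236 and 168 CPM in TAZ-CAMTA1, 108, 119 and 90.3 CPM in YAP-TFE3 and 50.8, 48.3 and 41.1 CPM in EV (0.97 ± 0.17, adjusted p = 6.87e-05). The 3 tested leukocyte markers summed to 1.24 to 1.98 CPM in TAZ-CAMTA1 and 1.21 to 1.84 CPM in YAP-TFE3, the 3 melanocyte markers to 3.79 to 5.23 and 8.92 to 12.1 CPM, and the 5 neuron markers to 6.11 to 7.33 and 7.29 to 13.3 CPM, and their part in the results was not tested.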

How the data were processed

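Poly(A) RNA from SW872 cells was sequenced, and the authors deposited a table of raw read counts per gene for each library, aligned to hg38; the counting tool, its use of strand and its rule for reads with several matches are not given in the sources used here, so reads of overlapping antisense genes or close paralogs cannot be told apart. Groups were taken from the labels. All 24 libraries entered 1 fit with edgeR 4.0.16 (R 4.3.3), with a mean for each of 8 groups and TMM factors, and genes averaging 5 counts or more across the 6 TAZ-CAMTA1 and YAP-TFE3 libraries were tested. Its quasi-likelihood F test with Benjamini-Hochberg adjustment over all tested genes, at 0.05, gave the calls. Every adjusted p is from this test unless another is named. An exact permutation test of 3 against 3 libraries cannot go below p = 0.1 and was not used. A gene with at most 3 counts in each library of a group was set to that floor for a lower bound, which covers counting error only. The script was tested on simulated data.

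The genes named are those behind the fusions, those the study followed by PCR, in each direction the 10 protein-coding genes with the largest log2 fold change (mean of at least 100 counts, no overlap of libraries) and the 5 with the largest CPM difference at 2-fold or more, and from each list up to 4 called members with the largest change, the most abundant one, or any member of a list of 15 or fewer; fewer are printed, and genes outside this are said to be so. The comparison, its genes and the lists were chosen with earlier results of these data known. Gene types and positions are from GENCODE 44 and promoters from RefSeq. The alternatives tried were DESeq2 1.42.0, other scalings, filters, a test against a log2 change of 1, thinned counts, the 2 compared groups alone, a replicate block and leaving out each library. The other libraries of the series entered the fit and are not described.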

Additional observations from a re-analysis of the deposited data

How the results depend on the processing

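The number of genes called between TAZ-CAMTA1 and YAP-TFE3 was 8801 with DESeq2's size factors, 9129 with library totals, 8613 without a filter, 8631 with edgeR's own filter, 8250 with counts thinned to the smallest library, 8564 with DESeq2, 6981 with only the compared groups in the fit and 7393 to 9103 on leaving out one library. A test against a log2 change of 1 left 1137 genes (161 higher in TAZ-CAMTA1, 976 in YAP-TFE3), 52 between TAZ-CAMTA1 and EV and 1563 between YAP-TFE3 and EV, since it sets a stricter hypothesis. TAZ-CAMTA1 against EV gave 519 to 865 calls on leaving out one library (519 without EV replicate 2, 540 without TAZ-CAMTA1 replicate 3, 633 without EV replicate 1; the cause was not tested), and YAP-TFE3 against EV 8658 to 10160. With library totals, YAP-TFE3 against EV split into 4614 higher and 5470 lower.

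Replicate numbers did not pair the libraries of the fusions: deviations of same-numbered TAZ-CAMTA1 and YAP-TFE3 libraries correlated at -0.0849, 0.0223 and 0.0255. Same-numbered YAP-TFE3 and EV libraries correlated at 0.203, 0.0201 and 0.103, and differently numbered ones at -0.143 to 0.0237. Between TAZ-CAMTA1 and EV these values were -0.0807, 0.0853 and 0.0865, and -0.14 to 0.0742. With the number as a replicate block, 8925 genes were called between the fusions, 1090 between TAZ-CAMTA1 and EV and 9925 between YAP-TFE3 and EV, and with thinned counts and the block 8333 between the fusions. Of 198 single genes examined, 198 kept their direction and call with the block, DESeq2's size factors or thinned counts. Many of them were named for large differences in these data, so this says little about the other calls. Without YAP-TFE3 replicate 3, 7821 of the 8816 genes called between the fusions were called again. On leaving out one library, SRXN1 ranged from -3.32 to 5.5, RAB5IF from -0.57 to 3.39 and RAET1E-AS1 from -3.32 to 4.58, each lowest without TAZ-CAMTA1 replicate 3. The test against a log2 change of 1 ended the call of 78 genes, and the fit on only the compared groups that of 6. Library totals gave 15 called cholesterol and fatty acid synthesis genes, 12 of them higher in TAZ-CAMTA1. Low counts limit the genes below about 1 CPM, whose fold changes depend on the small prior count that edgeR adds by default.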

Other observations

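The genes in this paragraph lie outside the naming rule and were chosen after their values were seen. Some of the genes that stood out were imprinted, that is, expressed mainly from the copy of one parent. H19, an imprinted long non-coding RNA, was at 631, 567 and 482 CPM in TAZ-CAMTA1, 79.7, 77.5 and 26.4 CPM in YAP-TFE3 and 305, 199 and 282 CPM in EV, with the YAP-TFE3 libraries lowest and replicate 3 the lowest of them (3.19 ± 0.39, adjusted p = 4.03e-07 by edgeR). IGF2, the insulin-like growth factor encoded beside H19, was at 28.1, 27.9 and 26.99 against 7.23, 8.42 and 13.5 CPM (1.51 ± 0.18, adjusted p = 2.93e-07), and here replicate 3 was the highest of the YAP-TFE3 libraries. GRB10, an imprinted adaptor of the insulin receptor, was higher in YAP-TFE3, at 95.2, 93.7 and 100.5 against 195, 207 and 106 CPM (-0.81 ± 0.15, adjusted p = 0.000105). Imprinted genes were not counted as a list.

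Some abundant genes were also far apart between the fusions, again chosen after their values were seen. KCNAB2, a potassium channel subunit, was at 11.3, 9.42 and 12.7 CPM in TAZ-CAMTA1, 297, 351 and 356 CPM in YAP-TFE3 and 8.15, 8.87 and 12.2 CPM in EV (-4.91 ± 0.17, adjusted p = 2.43e-16). UPP1, the uridine phosphorylase, was at 34.5, 38.8 and 29.8 against 491, 508 and 205 CPM (-3.55 ± 0.23, adjusted p = 1.00e-11), and ICAM1, an adhesion molecule for leukocytes, at 116, 118 and 138 against 640.0, 734 and 818 CPM (-2.56 ± 0.17, adjusted p = 1.47e-11). BLVRB, a biliverdin reductase, was at 33.4, 29.6 and 34.6 against 273, 312 and 267 CPM (-3.12 ± 0.13, adjusted p = 2.99e-15).

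Along with SRXN1, a pair of genes called higher in TAZ-CAMTA1 rested on TAZ-CAMTA1 replicate 3. RAB5IF, a RAB5-interacting factor, was at 0.374, 0.675 and 15.9 CPM in TAZ-CAMTA1 and 0.687, 0.861 and 0.818 CPM in YAP-TFE3 (2.86 ± 0.75, adjusted p = 0.00355). RAET1E-AS1, an antisense RNA, was at 0, 0 and 2.06 against 0.0327, 0.0615 and 0.0282 CPM (4.01 ± 1.22, adjusted p = 0.00981). In RAB5IF and RAET1E-AS1 the other TAZ-CAMTA1 libraries lay below all YAP-TFE3 libraries, and in SRXN1, which has 2 TAZ-CAMTA1 libraries at 0, they overlapped them.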
